A study of Mus musculus with 16 samples.

Results

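The comparison described here sets subchondral bone at 6 weeks after destabilization of the medial meniscus (DMM) against the same bone at 1 week after it. It used 8 of the 16 arrays of the study, 4 at each time, chosen by their titles. The animals were wild-type male C57BL6 mice that were 10 to 12 weeks old when both knees were operated on. In DMM the medial menisco-tibial ligament is cut, which leaves the medial meniscus loose. In the sham operation of the other 8 mice the ligament was exposed and left intact, and those joints were also taken at 6 weeks (4 arrays) or 1 week (4 arrays). All mice were thus operated on, and the 6-week mice were 5 weeks older at harvest than the 1-week mice after either operation. Bone under the cartilage of the medial tibial plateau was cut by laser from sections of 10 µm, the pieces of a joint were pooled and the RNA (100 ng) received the dye Cy3. Each array held 1 joint of 1 mouse.

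Subchondral bone carries load from the joint surface to the shaft. Osteoclasts, which fuse from blood-borne precursors, dissolve it, osteoblasts lay it down, and osteocytes buried in it direct both. The marrow between its struts makes red cells, platelets and white cells. A loose meniscus raises the load on the medial plateau, and mice with DMM go on to lose cartilage and to thicken this bone over the following weeks. The question put to the data was which bone and marrow transcripts differed between the early and the later time.

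Values are log2 of the background-corrected signal minus the 75th percentile of the array. A difference is the 6-week mean minus the 1-week mean on that log2 scale, so that 1 stands for a 2-fold higher and -1 for a 2-fold lower signal at 6 weeks. The 75th percentile of the signal lay between 471 and 812 on the DMM arrays, and 68.8% to 80.4% of spots were well above background. Defining markers of the labelled tissue were present. The osteoblast genes Bglap and Ibsp, the osteocyte genes Dmp1 and Mepe and the osteoclast genes Acp5 and Ctsk were above background on all 8 DMM arrays. So were the marrow genes Alas2, Pf4, Mpo and Vpreb1. Array replicate 2 of the sham mice at 6 weeks stood apart from all others (principal component 1 at 176.5, 75th percentile of signal 329). It enters the DMM values only through the common estimate of spread, and leaving it out left each DMM difference at its value.

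No gene passed. In limma, with slide as a block and Benjamini-Hochberg adjustment over 28250 genes, 0 genes had an adjusted p under 0.05 (0% called), and the smallest adjusted p was 0.151. At an unadjusted p under 0.05 there were 3086 genes, or 10.9% of those tested, 1598 higher at 6 weeks (5.66%) and 1488 lower (5.27%). Without the outlying sham array there were 4735 (16.8%). Values of the 2 times did not overlap for 788 genes that were higher (2.79%) and 696 that were lower (2.46%), 5.25% in all. A higher mean was seen for 53.6% of genes and a lower one for 46.4%. All these shares are the background for every list count below, also where they are not repeated. No difference below therefore passed the adjusted test, and each is given as a measured value with its error. The count of calls moved with the weight of single arrays. Letting limma weight the arrays gave 918 genes (3.25%), and leaving out replicate 3 of the 6-week mice or replicate 3 of the 1-week mice gave 144 and 80.

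**Figure D1:**
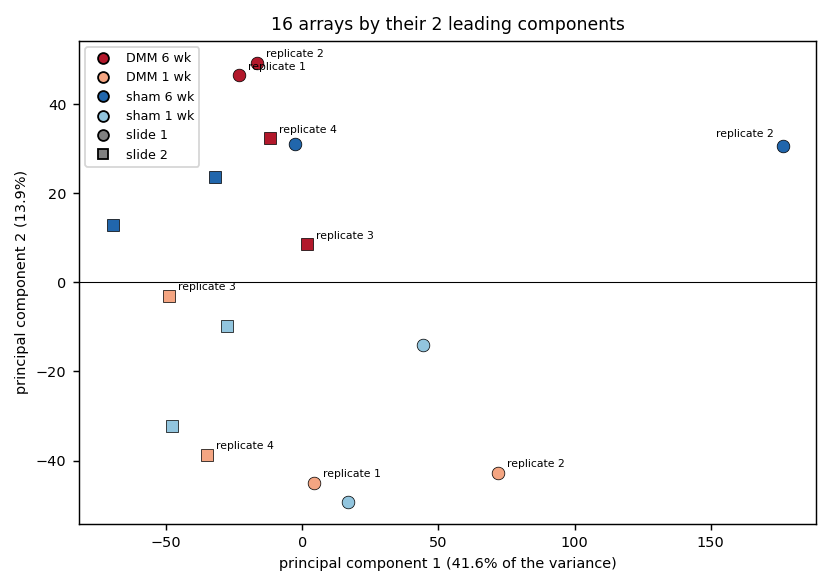
Position of the 16 arrays on the 2 leading principal components, which held 41.6% and 13.9% of the variance; colour gives the group and shape the slide, and replicate numbers are given for the DMM arrays and the array that stands apart. On component 2 all 8 arrays from 6 weeks lie above 0 (8.6 to 49.3) and all 8 from 1 week below it (-49.2 to -3), after DMM and after sham alike.

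Red cell genes were higher at 6 weeks, as a group and on both slides. Red cell precursors in marrow switch on haem synthesis, globin chaperones and a dedicated membrane skeleton under the transcription factors Gata1, Klf1 and Tal1 and the erythropoietin receptor Epor. All 33 measured members of the 2 erythroid lists were higher at 6 weeks, where 53.6% of all genes were. Of these, 31 had an unadjusted p under 0.05 (93.9%, against 5.66% of all genes in that direction), and 12 did not overlap between the times (36.4%, against 2.79%). Over all genes 46.4% had a lower mean. The lists were chosen with earlier results of these data known, and all 33 genes were read on the same arrays. Their counts are thus not 33 separate results. The differences ran between 0.22 (Ermap) and 1.81 (Epb42). In such bulk tissue, fewer cells of a type and less RNA per cell cannot be told apart.

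The promoters of 3 members are shown because this group carries the clearest difference in the comparison and GATA factors and Klf1 are known regulators of it. Given are the 250 bases before the start of the gene, from RefSeq on GRCm38.p6, 5′ to 3′ on the strand of the gene. Capitals mark AGATAA, the core bound by GATA factors, and CCACCC, a core bound by Klf1 and its relatives, on either strand.
Epor, chr9:21963577-21963826, minus strand: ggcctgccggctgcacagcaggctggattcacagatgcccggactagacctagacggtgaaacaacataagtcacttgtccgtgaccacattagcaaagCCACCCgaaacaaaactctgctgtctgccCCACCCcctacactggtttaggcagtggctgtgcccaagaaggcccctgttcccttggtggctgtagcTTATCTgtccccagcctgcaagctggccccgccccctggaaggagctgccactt
Alas2, chrX:150547167-150547416, plus strand: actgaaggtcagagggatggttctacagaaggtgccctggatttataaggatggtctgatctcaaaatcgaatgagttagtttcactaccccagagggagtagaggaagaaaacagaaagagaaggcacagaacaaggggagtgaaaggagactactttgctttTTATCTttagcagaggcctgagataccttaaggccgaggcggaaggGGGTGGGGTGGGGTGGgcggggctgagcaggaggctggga
Epb41, chr4:132075314-132075563, minus strand: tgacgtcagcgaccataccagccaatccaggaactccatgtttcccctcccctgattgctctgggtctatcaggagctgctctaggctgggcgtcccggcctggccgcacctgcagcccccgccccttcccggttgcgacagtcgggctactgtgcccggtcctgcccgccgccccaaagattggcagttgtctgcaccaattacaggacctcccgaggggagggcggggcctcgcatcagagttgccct
AGATAA was present in 7 of the 22 erythroid promoters found in the table (31.8%) and in 2771 of all 27025 (10.3%). CCACCC was present in 9 of the 22 (40.9%) and in 7480 of all (27.7%), and in 8 of 18 promoters of the fibrous matrix list (44.4%), whose genes were lower at 6 weeks. The Epb41 window held neither. A match is a run of letters, not a measured binding site.

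Alas2, which catalyses the entry step of haem synthesis in red cell precursors, read 6.68, 6.73, 5.97 and 6.62 on replicates 1 to 4 at 6 weeks. At 1 week it read 5.19, 3.88, 5.94 and 5.22. The times did not overlap, though replicate 3 at 1 week came within a few hundredths of replicate 3 at 6 weeks. The difference was 1.44 ± 0.37 (SE), or 2.72-fold (limma, adjusted p = 0.168). Its probe lies at chrX:147004993-147005052 on mm9. Epor read 3.81, 3.83, 3.38 and 3.75 at 6 weeks and 2.58, 1.30, 3.26 and 2.42 at 1 week, again without overlap (1.30 ± 0.33, adjusted p = 0.168). Fech, which inserts iron into the haem ring, had the smallest p of the red cell genes (1.31 ± 0.30, adjusted p = 0.159). For Fech the highest 1-week value, 5.55 on replicate 3, stood just above the lowest 6-week value, 5.54 on replicate 3.

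Gata1 read 4.19, 4.03, 3.63 and 4.04 at 6 weeks and 2.76, 1.86, 3.79 and 3.00 at 1 week. Klf1, which activates globin genes, read 2.62, 2.23, 1.61 and 2.36 at 6 weeks and 1.08, -0.70, 1.87 and 1.01 at 1 week. In both genes only replicate 3 at 1 week reached into the 6-week range. Their differences were 1.12 ± 0.31 (adjusted p = 0.184) and 1.39 ± 0.53 (adjusted p = 0.331). Tal1 (0.94 ± 0.27) and the water channel Aqp1 of the red cell membrane (1.01 ± 0.28) had similar sizes, and Tal1 did not overlap. Ank1, which anchors the membrane skeleton, was higher by 1.26 ± 0.32, and Xpo7, a nuclear exporter used as red cell precursors condense their nuclei, by 0.88 ± 0.22. The 8 probes of Xpo7 disagreed, with differences between -0.48 and 1.30. The larger differences, picked out after their values were seen, included those of Epb42 (1.81 ± 0.68) and the globin chaperone Ahsp (1.70 ± 0.61).

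The list of 20 haem and membrane genes gives the size per array. Its mean, relative to all 16 arrays, was 0.91, 0.76, 0.33 and 0.85 at 6 weeks and -0.43, -1.61, 0.27 and -0.43 at 1 week. Replicate 2 at 1 week was thus far below the rest and replicate 3 at 1 week close to the lowest 6-week array. Without replicate 2 at 1 week the 33 genes were still all higher, and 24 had an unadjusted p under 0.05, beside 4.05% of all genes in that direction. Within slides, all 33 were higher on slide 2 and the median of the 20 was 1.87 on slide 1 and 0.64 on slide 2.

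**Figure D2:**
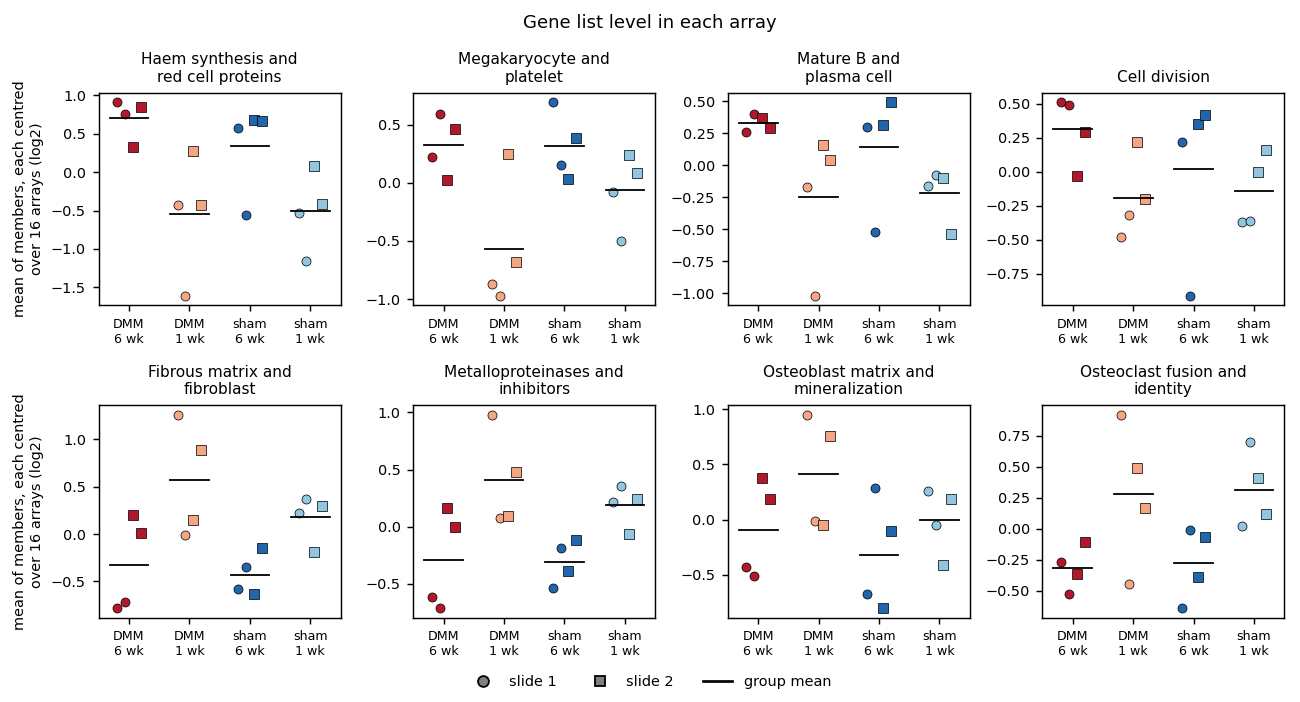
Mean of the members of 8 gene lists on each of the 16 arrays, as log2 relative to the mean over all arrays; circles are arrays of slide 1, squares of slide 2, and bars are group means of 4 arrays. In the haem and red cell list the 4 DMM arrays at 6 weeks lie between 0.33 and 0.91 and the 4 at 1 week between -1.61 and 0.27; in the fibrous matrix list the order of the group means is turned round and the arrays overlap.

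Megakaryocytes bud off platelets in the same marrow. Of the 19 measured genes of this list, 18 were higher at 6 weeks, where 53.6% of all genes were, with a median difference of 1.08. An unadjusted p under 0.05 was found for 14 (5.66% of all genes in that direction). Gp9, a part of the platelet receptor for von Willebrand factor, read 3.93, 4.37, 3.51 and 4.04 at 6 weeks and 2.27, 2.24, 3.72 and 2.47 at 1 week. Replicate 3 at 1 week lay inside the 6-week range and the other 3 well under it. The difference was 1.29 ± 0.31 (adjusted p = 0.159). Gp5, its partner in that receptor, was higher by 1.31 ± 0.32, and Treml1, a receptor stored in platelet granules, by 1.19 ± 0.28. Pf4, a chemokine of those granules, read 6.42, 6.96, 6.00 and 6.53 at 6 weeks and 4.90, 4.80, 6.38 and 5.51 at 1 week (1.08 ± 0.36, adjusted p = 0.27). Here too only replicate 3 of the 1-week arrays overlapped. None of the 19 genes separated the times, and leaving that replicate out brought 6 of them under an adjusted p of 0.05, beside 80 of all genes (0.283%).

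B cells mature in marrow from precursors that rearrange their receptor genes. In the list of mature B and plasma cells 10 of 14 genes were higher, where 53.6% of all genes were. Of the higher ones, 8 had an unadjusted p under 0.05 (5.66% of all genes in that direction). No overlap was seen for 7 of them (2.79% of all genes). Ms4a1, the surface protein CD20, read 2.77, 3.10, 2.70 and 2.68 at 6 weeks and 0.90, 0.39, 2.07 and 1.51 at 1 week. All 4 later arrays exceeded all 4 earlier ones, and the difference was 1.59 ± 0.42 (adjusted p = 0.172). The antibody joining chain Jchain was higher by 0.92 ± 0.30 and Fcrla by 1.21 ± 0.41. Prdm1, the regulator of plasma cell identity, had the opposite sign (-0.93 ± 0.30, adjusted p = 0.251). Without replicate 2 at 1 week, 3 genes of the list in place of 8 had an unadjusted p under 0.05 in the higher direction. Beside them stood 4.05% of all genes.

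Earlier B cell stages had a smaller median after DMM, 0.44 against 0.85 for the mature list. The pre-B list had 11 of 14 members higher, 3 of them with an unadjusted p under 0.05. Without replicate 4 at 1 week the medians were 0.72 for the pre-B list and 1.00 for the mature list. After sham the order was turned round (0.57 and 0.45). Rag1, which cuts receptor genes for rearrangement, read -0.76, -0.78, -0.77 and -0.81 at 6 weeks and -1.99, -2.88, -1.44 and -0.93 at 1 week. The later arrays were nearly identical and the earlier ones spread over almost 2 log2 units (1.03 ± 0.50, adjusted p = 0.478). Vpreb1, part of the surrogate light chain, read 2.78, 3.40, 3.21 and 3.03 against 2.58, 1.88, 3.43 and 4.59, a difference of -0.02 ± 0.48. Cd79b (0.99 ± 0.34), Vpreb3 (0.81 ± 0.33) and Cd79a (0.72 ± 0.30) were the 3 with the smallest p. Among T and NK cell genes 13 of 17 were higher with a median of 0.25. Cd2 was higher by 1.01 ± 0.32 and Cd8a by 0.55 ± 0.22, both without overlap, while Tcf7 differed by -0.71 ± 0.30. All 11 MHC class II genes were higher (median 0.38, with 0.85 on slide 1 and -0.07 on slide 2). Without replicate 2 at 1 week 8 of the 11 were higher. H2-Ob had the smallest p of them (0.82 ± 0.26, adjusted p = 0.252).

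Granulocyte genes had differences near 0. The early granule list had 6 members higher and 7 lower (median -0.02), and 0 of 13 had an unadjusted p under 0.05. Mpo, the enzyme of primary granules, read 8.15, 7.13, 8.21 and 7.71 at 6 weeks and 7.31, 8.21, 8.31 and 7.88 at 1 week, which overlap throughout (-0.13 ± 0.24). Elane, the elastase of the same granules, differed by -0.06 ± 0.28, and Camp, Chil3 and Lcn2 by 0.19 to 0.21. Of 15 mature neutrophil genes 9 were higher (median 0.04), and Stfa2l1 (0.69 ± 0.45) and Il1r2 (-0.41 ± 0.36) had errors close to their differences. The 1 gene of that list with an unadjusted p under 0.05 was Mmp9, which osteoclasts also make. Macrophage genes were higher in 14 of 19 (median 0.47), among them the iron exporter Slc40a1 (0.47 ± 0.21), the haem-degrading Hmox1 (0.71 ± 0.35) and C1qb (0.48 ± 0.25). That median was 0.86 on slide 1 and -0.14 on slide 2, and it was 0.12 without replicate 2 at 1 week. The mast cell, basophil and eosinophil list split in the same manner (1.41 and -0.38), with Il5ra at 0.73 ± 0.36, Ms4a2 at 0.59 ± 0.36 and Cpa3 at 0.68 ± 0.46.

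Cell division genes were higher in 29 of 30 (median 0.50), where 53.6% of all genes were. An unadjusted p under 0.05 was found for 7 (5.66% of all genes in that direction). Mki67, a marker of cycling cells, read 6.47, 6.09, 5.83 and 6.19 at 6 weeks and 5.38, 5.23, 6.10 and 5.52 at 1 week (0.59 ± 0.29, adjusted p = 0.494). The 1-week replicate 3 again lay within the later range. Rrm2 (0.61 ± 0.20), Prc1 (0.66 ± 0.22) and Ccna2 (0.51 ± 0.17) had the smallest p. With the outlying sham array left out of the common spread, 21 of the 30 had an unadjusted p under 0.05, beside 9.22% of all genes in that direction. Without replicate 2 at 1 week 4 of the 30 did, beside 4.05%. The 12 stem and progenitor genes had a median of 0.11. Slamf1 was higher by 1.36 ± 0.47, and Flt3 higher by 0.45 ± 0.19. Procr differed by -0.89 ± 0.34, without overlap.

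**Figure D3:**
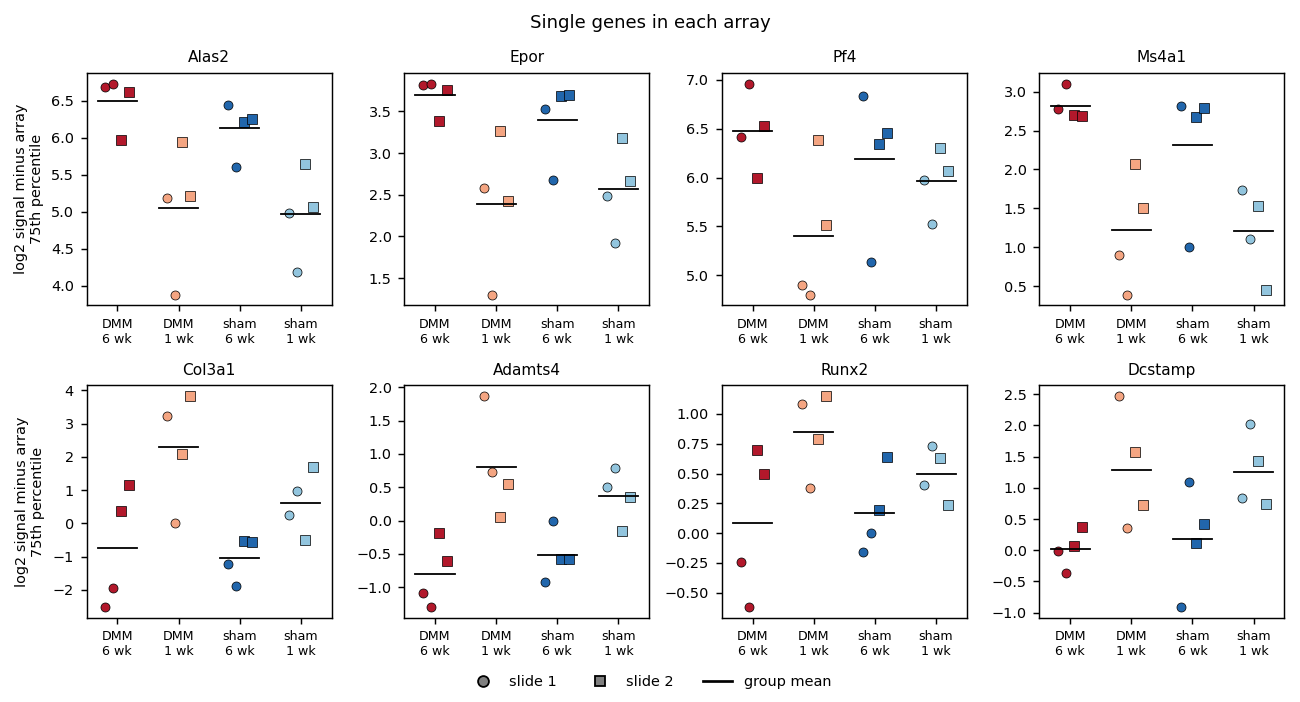
Log2 signal, relative to the array's 75th percentile, of 8 single genes on each array; circles are slide 1, squares slide 2, and bars are means of 4 arrays. Alas2, Epor and Ms4a1 are higher on every DMM array at 6 weeks than on any at 1 week and Adamts4 is lower on every one, while Pf4, Col3a1, Runx2 and Dcstamp overlap.

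Osteoblast genes were mostly lower at 6 weeks, with overlap. Of 8 regulators 6 were lower and 3 had an unadjusted p under 0.05 (lower direction, 5.27% of all genes). Runx2, the master regulator of the lineage, read -0.24, -0.62, 0.70 and 0.50 at 6 weeks and 1.08, 0.38, 0.79 and 1.15 at 1 week. On slide 1 both later arrays were under both earlier ones (-1.16), and on slide 2 the gap was smaller (-0.37). The difference over all arrays was -0.77 ± 0.25 (adjusted p = 0.253). Creb3l1, which drives collagen secretion, differed by -1.39 ± 0.56 and Sp7 by -0.62 ± 0.33. The Runx2 promoter is shown as the counterpart of the marrow promoters, with capitals for ACCACA, the letters bound by RUNX proteins.
Runx2, chr17:44814628-44814877, minus strand: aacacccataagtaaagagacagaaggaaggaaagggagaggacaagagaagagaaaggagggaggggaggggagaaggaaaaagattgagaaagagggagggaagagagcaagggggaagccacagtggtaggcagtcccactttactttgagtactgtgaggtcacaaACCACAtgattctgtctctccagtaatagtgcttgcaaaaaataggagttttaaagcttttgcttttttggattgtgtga
ACCACA on either strand was present in 6 of 26 osteoblast and osteocyte promoters (23.1%), in 5 of 22 erythroid promoters (22.7%) and in 3832 of all 27025 (14.2%).

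Genes of bone matrix and mineralization were lower in 14 of 18 (median -0.56), where 46.4% of all genes were. Of them 4 had an unadjusted p under 0.05 (5.27% of all genes in that direction). Alpl, the phosphatase that frees phosphate for mineral, read 1.63, 1.71, 3.11 and 2.56 at 6 weeks and 4.31, 3.28, 2.30 and 3.36 at 1 week. The later arrays of slide 1 were lowest of all, whereas on slide 2 the mean difference was 0 (overall -1.06 ± 0.44, adjusted p = 0.386). Col1a1, the main collagen of bone, read 6.61, 7.35, 8.52 and 7.93 against 8.53, 8.96, 7.71 and 8.65 at 1 week (-0.86 ± 0.47, adjusted p = 0.554). Bmp1, which trims procollagen, differed by -0.97 ± 0.33 and Enpp1, which makes the mineral inhibitor pyrophosphate, by -0.71 ± 0.29. The osteocalcin genes did not share this sign. Bglap read 7.02, 7.04, 7.51 and 7.29 at 6 weeks and 7.94, 6.01, 6.63 and 8.01 at 1 week (0.07 ± 0.47), and Bglap2 differed by 0.20 ± 0.37. They are near-identical copies whose probes may bind either transcript.

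Among osteocyte genes 9 of 11 were lower (median -0.49). Dmp1, which guides mineral around the cell, read 1.30, 1.41, 2.85 and 2.38 at 6 weeks and 3.43, 1.73, 2.86 and 2.95 at 1 week (-0.76 ± 0.37, adjusted p = 0.482). Both later arrays of slide 1 were under both earlier ones, and those of slide 2 only slightly so. Fgf23, the phosphate hormone, differed by -0.73 ± 0.34, with Fam20c (-0.68 ± 0.28) and Irx5 (-0.92 ± 0.38) beside it. Sost, which encodes the Wnt inhibitor sclerostin, read -0.18, -0.40, 2.20 and 1.49 at 6 weeks and 1.08, -0.31, -0.07 and 0.41 at 1 week. It was lower on slide 1 (-0.68) and higher on slide 2 (1.67), and the overall difference was 0.50 ± 0.54. Mepe (0.12 ± 0.41) also had opposite signs on the slides (-0.62 and 0.86), and Phex differed by -0.24 ± 0.42.

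Osteoclast genes were lower on both slides. Of the 10 fusion and identity genes 9 were lower (median -0.58, -0.79 on slide 1 and -0.52 on slide 2). Dcstamp, which lets precursors fuse, read -0.01, -0.36, 0.06 and 0.37 at 6 weeks and 2.47, 0.35, 1.58 and 0.72 at 1 week. Its later arrays lay close together and only the highest of them, 0.37, exceeded an earlier one (-1.27 ± 0.48, adjusted p = 0.327). Calcr, the calcitonin receptor, differed by -1.25 ± 0.45, Mitf by -0.60 ± 0.26 and Tnfrsf11a, the receptor RANK, by -0.83 ± 0.39. Replicate 2 at 1 week read low in this list (-0.45, the other 3 between 0.17 and 0.92). Without it 7 of the 10 in place of 3 had an unadjusted p under 0.05 (5.16% of all genes in that direction), and without replicate 3 at 1 week 2 did (5.87%). Without replicate 1 at 1 week the median was -0.37.

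Of the 10 genes for bone resorption 8 were lower. Mmp9, a gelatinase, read 3.92, 3.62, 3.66 and 4.04 at 6 weeks and 4.59, 4.60, 4.42 and 4.26 at 1 week, with no overlap and little spread (-0.66 ± 0.17, adjusted p = 0.172). Tcirg1, a subunit of the pump that acidifies the resorption pit, differed by -0.69 ± 0.24 and Plekhm1, a lysosome adaptor, by -0.42 ± 0.16, also without overlap. Ctsk, the protease that digests bone collagen, read 6.58, 5.93, 6.33 and 6.65 against 8.00, 5.87, 7.53 and 6.97 at 1 week (-0.72 ± 0.43), and Acp5 differed by -0.45 ± 0.28. Car2 went the other way (1.30 ± 0.44, adjusted p = 0.269). It makes acid in osteoclasts and is also abundant in red cells, and among its 1-week arrays replicate 2 was lowest and replicate 3 highest, as for the red cell genes. The part of the red cell genes in that value was not tested. Of the signals that direct osteoclasts, Tnfsf11 (RANKL) differed by -0.66 ± 0.39, or -0.12 without replicate 1 at 1 week, its decoy Tnfrsf11b by -0.46 ± 0.35 and Csf1 by -0.42 ± 0.21, and 0 of 5 had an unadjusted p under 0.05. Il34, which shares the receptor of Csf1, differed by 0.20 ± 0.21.

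Fibrous matrix genes were lower in 28 of 29, where 46.4% of all genes were, with a median of -0.70. Of them 12 had an unadjusted p under 0.05 (5.27% of all genes in that direction). Col3a1, the collagen of young connective tissue and repair, had the lowest difference of all 28250 genes. It read -2.52, -1.95, 0.36 and 1.15 at 6 weeks and 3.24, 0.01, 2.09 and 3.83 at 1 week. The spread within each time was wide and 1 early array lay among the later ones. The difference was -3.03 ± 0.73, or 0.122-fold (adjusted p = 0.16), on a probe at chr1:45405589-45405648 of mm9. Its 3 probes agreed in sign and not in size, between -3.03 and -0.95. Tnn, a tenascin of periosteum and tendon, differed by -2.86 ± 0.67 and was above background on 1 of 4 later and 3 of 4 earlier arrays. For so dim a probe the size depends on the background method, and it was -0.94 with normexp. Col6a1 read 1.39, 1.54, 2.88 and 2.24 at 6 weeks and 4.41, 3.27, 2.70 and 3.80 at 1 week (-1.53 ± 0.38, adjusted p = 0.161). Only replicate 3 of each time overlapped. Col6a2, from the same microfibril, differed by -1.58 ± 0.39. Postn, made by periosteum under load, had a smaller difference with a wide error (-0.75 ± 0.57). The member with a positive sign was Ogn (0.32 ± 0.54). The median was -1.13 on slide 1 and -0.32 on slide 2, and without replicate 1 at 1 week it was -0.37.

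Proteases that cut matrix, and their inhibitors, were lower in 17 of 20 (46.4% of all genes) with a median of -0.83. Of them 7 had an unadjusted p under 0.05 (5.27% of all genes in that direction). Without replicate 1 at 1 week the median was -0.44. Adamts4, which cleaves aggrecan, read -1.09, -1.30, -0.19 and -0.61 at 6 weeks and 1.87, 0.73, 0.06 and 0.55 at 1 week. Every later array was under every earlier one (-1.60 ± 0.36, adjusted p = 0.159). Adamts5, the other main aggrecanase of mouse cartilage, differed by -0.88 ± 0.22 without overlap. Its 2 probes differed in size (-0.88 and -0.30). Timp1, a secreted inhibitor of metalloproteinases, read 2.70, 2.19, 2.77 and 2.98 at 6 weeks and 4.13, 3.97, 3.58 and 4.30 at 1 week. All later arrays lay under all earlier ones (-1.34 ± 0.32, adjusted p = 0.159). Mmp13, a collagenase of hypertrophic cartilage and bone, read 2.74, 2.06, 2.39 and 2.88 against 4.70, 2.02, 4.01 and 3.02 at 1 week (-0.92 ± 0.46, adjusted p = 0.503).

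Wnt signals favour bone formation, and secreted antagonists hold them back. Both kinds had lower means at 6 weeks: 7 of 8 antagonists (median -0.50) and 14 of 15 ligands, receptors and targets (median -0.45). Dkk3 read -1.76, -1.82, -0.76 and -0.76 at 6 weeks and 1.08, -0.92, -0.53 and 0.17 at 1 week, with overlap in 1 early array (-1.22 ± 0.39, adjusted p = 0.249). Sfrp2 (-1.16 ± 0.50) and Frzb (-1.43 ± 0.63) were dim, above background on 1 and 2 of the 4 later arrays. Nkd2 (-0.43 ± 0.16), Tcf7 and the co-receptor Lrp6 (-0.45 ± 0.20) had the smallest p of the targets. The Wnt ligand and target median was -0.80 on slide 1 and 0.08 on slide 2. In the TGF-beta and BMP pathway 20 of 26 were lower (median -0.28). The ligand Tgfb3 differed by -1.13 ± 0.47, and the BMP antagonist Chrdl1 by 0.90 ± 0.29 without overlap.

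Cartilage and joint surface lie next to the dissected bone. Of 20 cartilage matrix genes 14 were higher, where 53.6% of all genes were, with a median of 0.58. An unadjusted p under 0.05 was found for 5 (5.66% of all genes in that direction). Cnmd, an inhibitor of vessel growth in cartilage, read -0.42, -3.54, 0.12 and -0.36 at 6 weeks and -3.25, -4.24, -2.14 and -2.33 at 1 week. Replicate 2 at 6 weeks read like the early arrays (1.94 ± 0.73, adjusted p = 0.322). Epyc was above background on 2 of 4 later arrays and on 0 of 4 earlier ones. Sox6 was higher by 1.39 ± 0.36 without overlap (adjusted p = 0.172), and this factor works in red cell precursors as well as in chondrocytes. Col2a1, the main collagen of cartilage, did not share that sign, with 2.39, 1.72, 3.95 and 3.29 at 6 weeks and 4.11, 1.69, 2.63 and 2.90 at 1 week (0.00 ± 0.58). Acan differed by -0.25 ± 0.75 and Col10a1, of hypertrophic cartilage, by 0.07 ± 1.07. The hypertrophic list was lower in 6 of 7 (median -0.76), with Pth1r, the receptor of parathyroid hormone, at -1.09 ± 0.34. Prg4, the lubricin of the joint surface, read -4.57, -2.56, -4.37 and -1.09 against -1.35, -2.69, -1.75 and -0.69 (-1.53 ± 0.88). Fmod (-1.18 ± 0.53), Cd55 (0.37 ± 0.19) and Prg4 had the smallest p of 8 joint surface and tendon genes, 6 of which were lower.

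Markers of other tissues were read as well, though not each was well above background at both times. Among 19 muscle genes 16 were higher, where 53.6% of all genes were, and 4 were higher without overlap (2.79% of all genes). The list median was 0.32 (0.08 on slide 1, 0.91 on slide 2). Myh4, a myosin of fast muscle fibres, read -3.07, -5.94, 0.09 and -1.67 at 6 weeks, above background on 3 of the 4 arrays, and was not well above background on any of the 4 arrays at 1 week. With the scaling and background used here, its signal was at least 6.48-fold higher at 6 weeks, counting the earlier arrays at the lowest reliable signal. Over the alternatives the log2 difference of Myh4 ran from 1.7 to 5.39, so the bound depends on the processing. Mylpf was higher by 1.25 ± 0.30 and Myl1 by 0.87 ± 0.36, whereas Acta1 (0.41 ± 0.45) and Ckm (-0.57 ± 0.92) had errors as large as their differences. Muscle list means were 0.10, 0.05, 0.95 and 0.50 on the later arrays and -0.39, 0.41, -0.39 and -0.44 on the earlier ones. The part of muscle carried along in the bone and marrow values was not tested. Of 20 fat genes 8 were higher (median -0.08). Adipoq differed by 0.00 ± 0.48 and Cfd by -0.22 ± 0.72, while Slc2a4 (1.37 ± 0.31, adjusted p = 0.159) and Cd36 (1.17 ± 0.48) were higher without overlap. Nerve and Schwann cell genes had a median of 0.05, with Sox10 higher by 0.44 ± 0.17, while Ncam1 differed by -0.50 ± 0.22. Endothelial genes were lower in 12 of 17 (median -0.32), for example Flt1 (-0.88 ± 0.27) and Tie1 (-0.77 ± 0.27). Vwf, which megakaryocytes also make, was higher by 0.75 ± 0.25. Reticular stroma had a median of -0.01, and its niche chemokine Cxcl12 differed by -0.03 ± 0.17 while Pdgfrb differed by -0.81 ± 0.30, Il7 by -0.73 ± 0.35 and Vcam1 by 0.48 ± 0.31.

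The interferon list had 13 of 18 lower (median -0.23), and the 3 genes of smallest p were Oas genes, whose enzymes sense double-stranded RNA. Oas2 read 0.09, -0.04, 0.11 and 0.25 at 6 weeks and 2.11, 2.53, 0.96 and 1.46 at 1 week, with no overlap (-1.66 ± 0.34, adjusted p = 0.151). Oas1a (-1.13 ± 0.32) and Oasl2 (-0.89 ± 0.25) had the same sign on both slides. Other Oas genes of the list differed less (Oas3 -0.09, Oasl1 -0.17). Rsad2 (0.92) and Isg15 (0.49) were among the 5 members that were higher. Immediate early genes were lower in 10 of 16 (46.4% of all genes) and 6 had an unadjusted p under 0.05 (5.27% of all genes in that direction). Nr4a2 read -2.40, -2.19, -1.39 and -1.34 at 6 weeks and 0.54, 0.34, -1.18 and 0.04 at 1 week (-1.77 ± 0.38, adjusted p = 0.157). Fos differed by -1.05 ± 0.33, and the heat shock gene Hspa1b by -2.04 ± 0.69, where replicate 2 at 1 week alone read above 0 (1.36). Among inflammatory mediators 12 of 19 were higher (median 0.12), where 53.6% of all genes were. Il6 was higher by 1.20 ± 0.44 and was above background on all 4 later and 2 of 4 earlier arrays, Saa3 differed by -1.52 ± 0.83 and Ptgs2 by -1.06 ± 0.60. Ptgs2 was above background on 1 of 4 later and 3 of 4 earlier arrays, and with normexp background it differed by -0.23. Atf5 (-0.80 ± 0.28), Chac1 (-0.50 ± 0.24) and Trib3 (-0.51 ± 0.28) led the integrated stress response (median -0.21). Vegfa (-0.55 ± 0.22), Hk2 (-0.46 ± 0.20) and Pfkl (-0.30 ± 0.15) led the hypoxia list (median -0.11), and Bhlhe40 (-0.51 ± 0.21) and Bhlhe41 (0.72 ± 0.42) the clock list (median -0.16), where Ciart was above background on 0 of 4 later and 1 of 4 earlier arrays. Ribosomal protein genes were higher in 29 of 29 by a median of 0.22 (0.52 on slide 1, -0.03 on slide 2), with 0 at an unadjusted p under 0.05. Rps27, Rps7 and Rpl32 differed by 0.32 ± 0.15, 0.54 ± 0.31 and 0.26 ± 0.16. In the respiratory chain the median was 0.09, with Sdhc at -0.39 ± 0.15, Ndufv1 at 0.23 ± 0.25 and Atp5b at 0.26 ± 0.28.

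Since no gene was called, the 12 named genes with the smallest unadjusted p in each direction were taken from the whole table. D14Ertd670e had the smallest, with 0.35, 0.61, -0.68 and -0.10 at 6 weeks against -0.79, -0.83, -1.10 and -1.50 at 1 week (1.10 ± 0.18, adjusted p = 0.151). Next came Olfr693, an olfactory receptor (1.69 ± 0.29), Sh3bgr (0.95 ± 0.17), Urah, a uric acid pathway enzyme (1.29 ± 0.23), Gm32478 (1.39 ± 0.24) and Serpina1b, an alpha-1-antitrypsin copy (2.02 ± 0.36). The other 6 were the cation channel gene Trpc4, the somite factor Mesp2, the keratin-associated Krtap8-1, Gm33318, Tcp10a and the secretoglobin Scgb2b20, at 1.48 to 1.78. Their sizes depended on the processing. The lowest differences over the alternatives were 0.56 for Trpc4, 0.67 for Krtap8-1 and 0.78 for Tcp10a. For Mesp2, Gm33318 and Scgb2b20 they were 1.02, 1.09 and 1.3. Serpina1b read 3.06, 3.57, 1.54 and 1.79 at 6 weeks and 1.18, 0.30, 0.62 and -0.21 at 1 week. Its sister copies are near-identical and may share its probe.

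In the lower direction the smallest p belonged to Ccdc146 (-1.65 ± 0.31, adjusted p = 0.151). It was above background on 0 of 4 later and 4 of 4 earlier arrays. With the scaling and background used here, its signal was at least 1.68-fold lower at 6 weeks. Over the alternatives its log2 difference ran from -1.86 to -0.24, so this bound depends on the processing. Spsb4 (-1.15 ± 0.22), Oas2, Nr4a2 and Adamts4 followed, then Afdn, which links cell junctions to actin (-1.07 ± 0.24), and the transcription factor Klf4 (-0.99 ± 0.23). Klf4 read 2.71, 2.96, 3.48 and 3.06 at 6 weeks and 3.96, 4.55, 3.69 and 3.98 at 1 week, without overlap. The elastic fibre protein Emilin1 (-0.82 ± 0.19), the sulfotransferase Chst2 (-0.83 ± 0.19), Gm9917, the matrix protein Aebp1 (-1.42 ± 0.33) and the transaminase Gpt2 (-1.14 ± 0.26) completed the 12. The 2 probes of Spsb4 differed in size (-1.15 and -0.19). Gm9917 (-2.01 ± 0.46) was above background on 1 of 4 later and 3 of 4 earlier arrays and differed by -0.34 with normexp background. Of these 24 genes 20 were above background on all 8 DMM arrays, and their median level was -2.24 where that of all genes was -1.01.

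Each slide held 2 arrays of either time, so the comparison can be read on each alone. Of the 40 list medians 32 were larger in size on slide 1 than on slide 2, and 22 had the same sign on both. The red cell, platelet, mature B cell and muscle medians were above 0 on both slides, and the fibrous matrix, metalloproteinase and osteoclast medians were under 0 on both. Those of the osteoblast regulators (-1.06 and 0.01), hypertrophic cartilage (-1.52 and 0.00) and joint surface (-1.38 and 0.07) rested on slide 1. So did those of bone matrix and mineralization (-0.78 and -0.04), the RANKL axis (-0.71 and 0.05) and endothelium (-0.50 and 0.01). Among others, the pre-B cell (0.95 and 0.07) and cell division (0.90 and 0.11) medians rested largely on it. Replicate 1 at 1 week carried part of several medians, which without it were -0.17 for osteocytes, -0.14 for the RANKL axis, -0.13 for the TGF-beta and BMP pathway, -0.10 for endothelium and 0.40 for adipocytes. Without replicate 2 at 1 week the medians were 0.24 for pre-B cells, 0.15 for MHC class II and 0.37 for cartilage matrix.

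**Figure D4:**
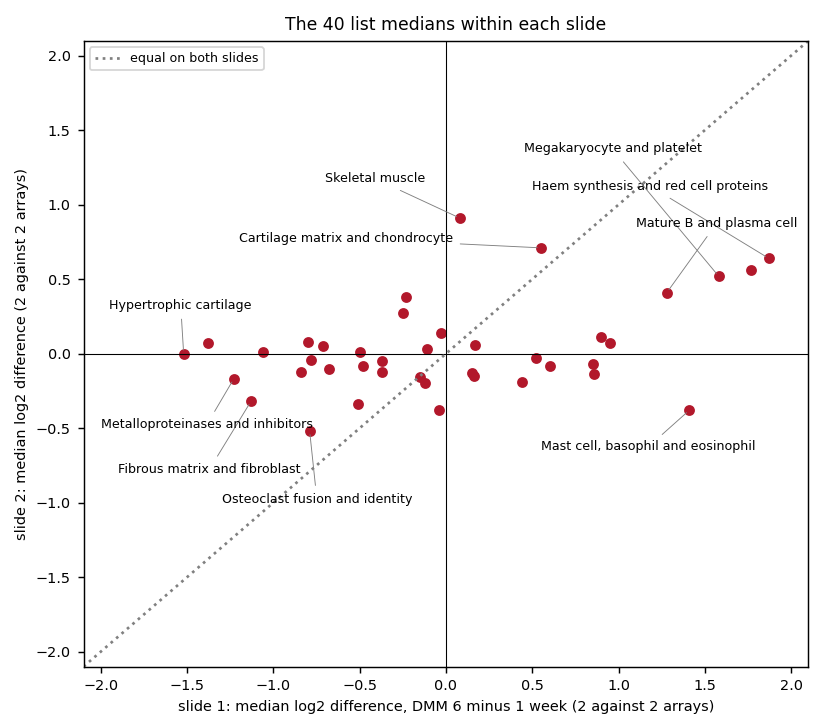
Median log2 difference (DMM at 6 weeks minus DMM at 1 week) of each of the 40 gene lists from the 4 arrays of slide 1 (horizontal) and the 4 of slide 2 (vertical); the dotted line marks equal values and 10 lists are named. Most points lie nearer to 0 on slide 2, for example 1.87 and 0.64 for the haem and red cell list.

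The same time step was measured after sham surgery, on 8 other arrays. In sham, too, 0 genes were called (smallest adjusted p 0.192), and 2399 had an unadjusted p under 0.05 (8.49%, of which 1150 were lower, 4.07%). Across all 28250 genes the DMM and sham differences had a correlation of 0.52, a description in which genes are not independent and the slides are shared. Of the 3086 genes with an unadjusted p under 0.05 after DMM, 2917 had the same sign after sham (94.5%). List medians had the same sign after both operations in 32 of 40 lists. The haem and red cell median was 1.24 after DMM and 0.92 after sham, and the fibrous matrix median -0.70 after DMM and -0.57 after sham. Without the outlying sham array the sham medians were 1.07 and -0.72. For platelet genes the medians were 1.08 after DMM and 0.43 after sham, or 0.50 without that array. For cartilage matrix genes the sham median was the larger, 1.23 (1.01 without that array) against 0.58 after DMM.

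The test of the difference between the 2 time steps called 0 genes (smallest adjusted p 1), and 274 had an unadjusted p under 0.05 (0.97%), or 543 (1.92%) without the outlying sham array. In limma's fit with array weights it also called 0. None of the 33 red cell genes was among the 274. Of 36 bone, cartilage and marrow genes followed throughout, 3 had an unadjusted p under 0.05 for it. Cfd, an adipocyte complement protease, differed by -0.22 after DMM and 3.12 after sham (-3.35 ± 1.02, adjusted p = 1). Col10a1 differed by 0.07 after DMM and 3.57 after sham (-3.50 ± 1.52, adjusted p = 1), which came to -2.40 without the outlying sham array, where its unadjusted p was no longer under 0.05. Prg4 differed by -1.53 after DMM and 1.57 after sham (-3.10 ± 1.24, adjusted p = 1). Mature neutrophil genes had a median of 0.04 after DMM and -0.63 after sham, or -0.37 in sham without that array. Fat genes had a median of -0.08 after DMM and 0.42 after sham, or 0.89 in sham without it. Gene by gene, 4 of the 20 fat genes had an unadjusted p under 0.05 in the test between operations, beside 0.97% of all genes. Without the outlying sham array 6 of them did, beside 1.92%. Of the 15 mature neutrophil genes 0 did, with or without that array. No test was made of the gaps between medians.

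**Figure D5:**
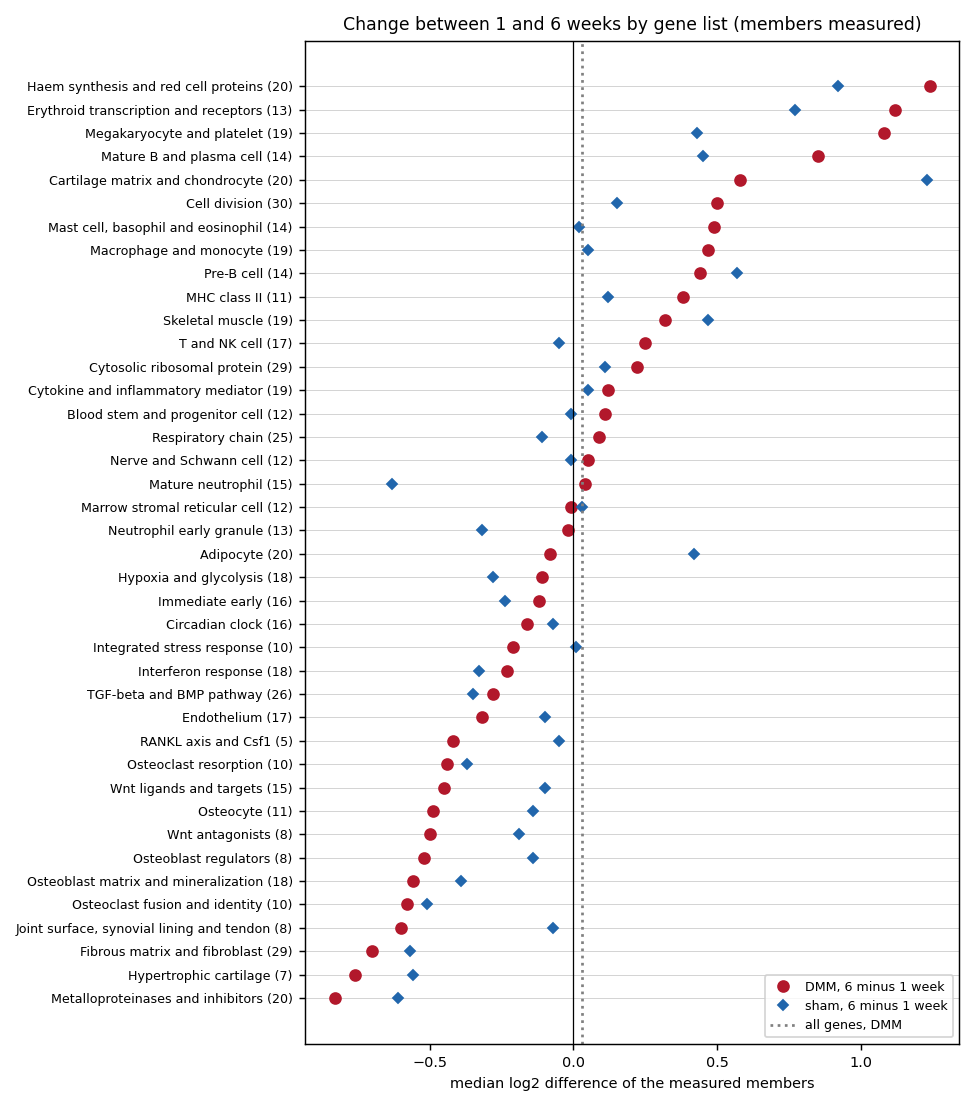
Median log2 difference between 6 weeks and 1 week of the measured members of 40 gene lists, after DMM (circles) and after sham (diamonds), sorted by the DMM value; the dotted line is the median of all genes after DMM (0.03), and numbers in brackets are members measured. Red cell, platelet and B cell lists lie to the right and protease, cartilage hypertrophy and fibrous matrix lists to the left after both operations.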

How the data were processed

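RNA of 16 joints was measured on 1-colour Agilent arrays, 2 slides of 8 arrays with 2 of each group per slide. The scanner software was Feature Extraction 10.7.3.1, per the file headers. Its deposited output gives, for each spot, a background-corrected intensity (gProcessedSignal), a call of well above background, and a probe position on mm9. The authors also deposited a table of 50815 probes with log2 values (range -1.67 to 20.43), and the submitters' processing notes name limma 3.20.9. Which background and centring steps lie behind that table is unknown here.

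From the scanner files, control spots and outlier spots were left out and spots of a probe averaged. Values are log2 intensities minus the array's 75th percentile. A probe entered if well above background on at least 4 of 16 arrays (43268 of 56605 probes, after dropping 342 with a missing array). Each gene was represented by its probe of highest mean, which gave 28250 genes, 19754 with a current symbol.

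limma 3.58.1 (R 4.3.3) fitted 1 mean per group and a slide block to all 16 arrays (11 residual and 3.22 prior degrees of freedom), with 2-sided p-values and Benjamini-Hochberg adjustment at 0.05. The median SE of a DMM difference was 0.27. The number of arrays limits the precision. The fit was tested on simulated data. Replicate numbers follow the order of the records. The labels name 1 mouse per joint.

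Gene lists (40, with 621 of 640 genes measured), 36 key genes and the groups compared were chosen with earlier results of these data known. Named genes were the 12 smallest unadjusted p per direction with a current symbol, the key genes, and the 3 smallest p of each list. A bound set dim arrays at their lowest reliable signal, and was computed only for the scaling and background used here. Alternatives covered the scaling, background, filters, the rule for several probes, array weights, the slide block and each array left out. Python 3.11.15, pandas 2.3.3 and matplotlib 3.10.9 drew promoters and figures. Promoters came from RefSeq (GRCm38.p6), with 22 of 33 erythroid genes matched. Where a probe lies within its gene was not analysed here. Some members of the lists are counted and not reported by name here.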

Additional observations from a re-analysis of the deposited data

Results flagged for a closer look

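In groups of 4 arrays, an array was singled out where its gap to the nearest of the others, divided by the range, passed 0.829. This happened in 24 of 408 groups tested, and chance gives about 1 in 20, or 20.4. Replicate 2 at 1 week accounted for 8 of the 24. It read lowest for Acan (ratio 0.85), Vcam1 (0.955), Cd36 (0.839) and Ptgs2 (0.876), and for the list means of cartilage matrix (0.921), macrophages (0.928) and inflammatory mediators (0.857), and highest for the muscle list mean (0.942).

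Replicate 3 at 1 week read highest for Vwf (0.849), Gp9 (0.844) and Slamf1 (0.863) and lowest for Oas1a (0.905). Replicate 1 at 1 week read highest for Tnfsf11 (0.892) and Ciart (0.844) and lowest for Myh4 (0.87). At 6 weeks, replicate 3 read highest for Gm9917 (0.839) and lowest for Alas2 (0.849) and the mature neutrophil list mean (0.859). Replicate 2 at 6 weeks read lowest for Cnmd (0.852) and Sdhc (0.918) and highest for the list mean of stem and progenitor cells (0.872). Replicate 4 at 6 weeks read highest for Tcp10a (0.851) and Fos (0.854) and lowest for Nkd2 (0.853).

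Flt3, a cytokine receptor of early progenitors and dendritic cells, differed in opposite directions, by 0.45 after DMM and by -0.29 after sham. The gap between the operations was 0.74, and its adjusted p in limma was 1.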

How the results depend on the processing

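No paired analysis was possible because no label pairs joints across the groups. The count of genes called 6 weeks against 1 week after DMM was 0 without the slide block, with the DMM arrays alone, under 3 other scalings or backgrounds, with the authors' deposited table, under 2 other filters and with the mean of all probes. Array weights gave 918 after DMM (629 higher, 289 lower) and 2491 after sham, and weights on the 8 DMM arrays alone gave 11428; the sham count, the fit to the 8 arrays and the counts of list members without single arrays were added after seeing the data. Leaving out a DMM array gave between 0 and 144 calls: 144 without DMM_6wk replicate 3 and 80 without DMM_1wk replicate 3, of which 125 and 64 were among the 918. Without sham_6wk replicate 2 it was 0, with a smallest adjusted p of 0.0825. The difference between operations stayed at 0 in all 21 alternatives run.

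Of 720 alternative list medians 10 moved by over the spread between replicates: integrated stress response to -0.31 (deposited table), -0.34 (array weights) and between -0.35 and -0.12 leaving out an array, hypoxia to -0.23 (deposited table), stem and progenitor cells to -0.06 (mean of all probes), mature B cells to 0.48, T and NK cells to 0.05 and MHC class II to 0.04 (array weights), and mature B cells to between 0.47 and 1.00 leaving out an array. The sign was kept throughout in 32 of 40 lists and 149 of 164 named genes. Of the 15 others, Col2a1 (between -0.37 and 0.51) and Adipoq (between -0.31 and 0.40) were at 0.00 in the report. Under quantile normalization Bglap came to -0.20, Mepe to -0.04 and Lcn2 to -0.01; in the deposited table Bglap to -0.07, Bglap2 to -0.02, Camp to -0.05 and Lcn2 to -0.01; with the mean of probes Bglap to -0.08; with array weights Bglap to -0.24 and Cfd to 0.08. Leaving out an array gave -0.33 to 0.37 for Bglap, -0.04 to 0.38 for Bglap2, -0.10 to 0.55 for Mepe, -0.72 to 0.19 for Phex, -0.58 to 0.29 for Acan, -0.58 to 0.85 for Col10a1, -0.34 to 0.06 for Mpo, -0.25 to 0.22 for Elane, -0.44 to 0.48 for Vpreb1, -0.10 to 0.01 for Cxcl12, -0.58 to 0.50 for Cfd and -0.03 to 0.42 for Lcn2. The cause of these moves was not tested.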
